A study of Mus musculus with 7 samples.

Results

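Insulin, AKT, AMPK and mTOR signalling was followed through 34 genes in the mammary gland of mice on lactation day 1. The genes were taken by symbol, from the ligand Igf1 and its receptors through the PI3-kinase, AKT and mTOR steps to the AMPK subunits and the stress-induced inhibitors of mTOR. All 34 were among the 37310 genes of the count file and all 34 were among the 17175 genes with enough reads to be tested. The libraries came from 3 WT mice, which were Tardbp wt/wt and carried WAP-Cre, and from 4 Tardbp KO mice, which were Tardbp fl/fl and also carried WAP-Cre, so the control mice shared the Cre transgene. Tardbp encodes TDP-43, an RNA-binding protein that recognises UG-rich sequence. The WAP promoter is active in luminal epithelium from mid-pregnancy, so the deletion was directed to that cell type while the RNA was from whole tissue. All mice were C57BL/6, and their age was not given in the sources used here.

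Insulin and IGF1 bind receptor tyrosine kinases whose substrates, IRS1 and IRS2, recruit PI3-kinase. The lipid it makes brings AKT to the membrane, where PDK1 and mTOR complex 2 phosphorylate it. AKT inhibits GSK3, keeps FOXO transcription factors out of the nucleus and inhibits the TSC complex, which frees the GTPase RHEB to turn on mTOR complex 1 and, through S6 kinase and the 4E-BPs, protein synthesis. AMPK, a kinase of 3 subunits that responds to low energy, acts in the opposite direction on mTOR complex 1 and on lipid synthesis. In the lactating gland AKT1 is known for its part in milk lipid synthesis and glucose uptake. Transcript levels do not show the phosphorylation by which most of these proteins are controlled.

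Total counts per library were between 36007737 and 42811337. Tardbp itself, whose counts include exons outside the deleted part, was at 159 to 223 CPM (counts scaled to a fixed library total, scaled by TMM as described under the processing) in WT libraries and at 154 to 214 in Tardbp KO libraries. The total over its exons did not separate the genotypes, so these gene counts do not check the genotype labels. Of the luminal markers, the milk genes Csn2, Wap and Lalba and the transcription factor gene Elf5 were lower in every Tardbp KO library than in every WT library, the keratin gene Krt8 was higher in every Tardbp KO library (log2 fold change 0.55, unadjusted p = 0.023 in the quasi-likelihood test), and Krt18, Krt19 and Epcam overlapped. The 10 lymphocyte markers were all higher at an unadjusted p under 0.05. Their summed level was 41.4 to 58.8 CPM in WT libraries, 429 and 579 in Tardbp KO replicates 1 and 3, 73.2 in replicate 2 and 130 in replicate 4. The 8 adipocyte markers summed to 2795 to 4075 CPM in WT and 3138 to 6058 in Tardbp KO, highest in replicate 2. In such bulk tissue, fewer cells of a type and less RNA per cell cannot be told apart.

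By fold, a pair of kinase catalytic genes differed most. Akt1 and Prkaa2, the gene of the AMPK catalytic subunit alpha 2, stood at 47.7% and 45.4% of their WT means in the Tardbp KO libraries. Rps6kb1, Rheb and Irs1 were lower by smaller amounts. The 7 members Igf1r, Pik3cb, Foxo1, Tsc1, Rictor, Prkaa1 and Sesn1, were higher. None of the 34 passed the study's limits (a log2 fold change beyond 1 in either direction with an adjusted p under 0.01) in edgeR's quasi-likelihood test, and neither did any other gene, so the share called among all genes was 0.0%. At an unadjusted p under 0.05 in that test, 5 of 34 members were lower, where 10.7% of all tested genes were, and 7 of 34 were higher, where again 10.7% of all genes were. The count of 7 was 1 without WT replicate 1, 3 without WT replicate 3, 1 without Tardbp KO replicate 2 and 1 without Tardbp KO replicate 3. The counts over all genes in those smaller fits are not given here. A trait of these members and the loss of a library can therefore not be told apart. In edgeR's exact test at the same limits, 2 members were called lower, Akt1 and Prkaa2, beside 1.44% of all genes, and 0 were called higher, beside 1.04% of all genes. DESeq2 called the same 2 genes, and among all 17175 tested genes it called 280 lower and 288 higher. Every Tardbp KO library lay below every WT library for 5 members (Akt1, Prkaa2, Rps6kb1, Rheb and Rptor), beside 9.62% of all genes. Every Tardbp KO library lay above every WT library for 6 members (Igf1r, Pik3ca, Akt2, Tsc1, Eif4ebp1 and Prkaa1), beside 9.07% of all genes. The median log2 fold change of the 34 was 0.03, and that of all tested genes was 0.05. The pathway as a whole was thus centred where other genes were, with a few members set apart.

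**Figure D1:**
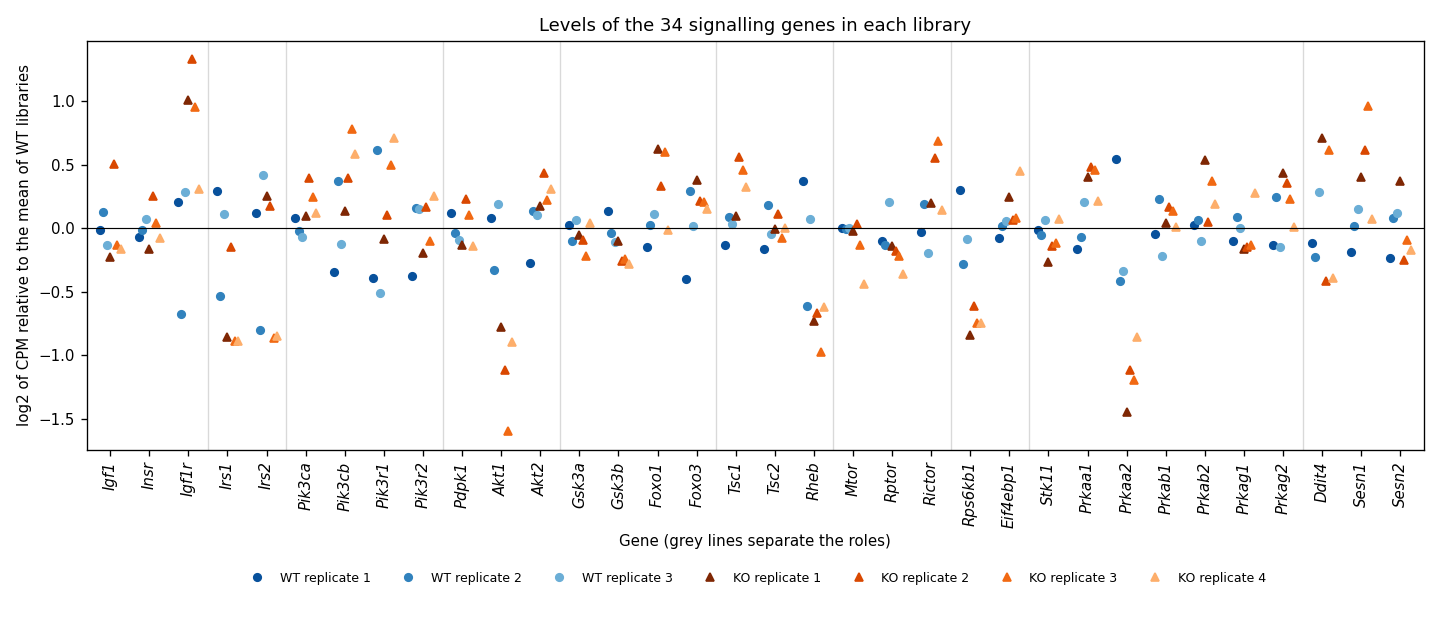
The log2 of the CPM over the WT mean (vertical axis) for each of the 34 genes (horizontal axis, ordered by role), with 1 point per library, circles for WT and triangles for Tardbp KO. The triangles of Akt1 and Prkaa2 lie below all circles, with log2 fold changes of -1.07 and -1.14, while most other genes have triangles and circles around 0.

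AKT1 is the serine-threonine kinase at the centre of the pathway. Akt1 was at 721, 541 and 777.5 CPM in WT replicates 1 to 3. In Tardbp KO replicates 1 to 4 it was at 395.5, 313, 224 and 366 CPM. All 4 Tardbp KO libraries were below all 3 WT libraries, and replicate 3 was the lowest. The resulting log2 fold change was -1.07 ± 0.23 (SE), or 2.10-fold lower, with an unadjusted p of 0.00136 and an adjusted p of 0.0793 in edgeR's quasi-likelihood test. The adjusted p was 0.0016 in edgeR's exact test and 0.00107 with DESeq2. Across all alternatives the adjusted p ran from 0.00107 to 0.62, and the log2 fold change was between -1.21 and -0.92 when single libraries were left out. Per kb of exon, Akt1 was the most abundant of the 34 genes in WT, at 166 ± 30.1 CPM per kb (SD, n = 3), and it ranked below Eif4ebp1 and Pik3r1 in Tardbp KO, at 79.2 ± 18.3 (SD, n = 4). Akt1 and Prkaa2 are also on the lipid gene list that the study drew up from these libraries, so their place here is not independent evidence of a direction.

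AKT2 is the paralog known for insulin-stimulated glucose uptake in fat and muscle. Akt2 was at 98.0, 130 and 128 CPM in WT and at 134, 161, 139 and 147 CPM in Tardbp KO. The Tardbp KO libraries were all above the WT libraries, by a narrow margin between WT replicate 2 and Tardbp KO replicate 1. Its log2 fold change was 0.29 ± 0.15, with an unadjusted p of 0.0936 in the quasi-likelihood test. Because both genes are read from the same library, their ratio does not depend on how libraries were scaled. The ratio of Akt1 to Akt2 counts per kb was 12.8, 7.23 and 10.6 in WT and 5.14, 3.39, 2.81 and 4.33 in Tardbp KO. Akt1 remained the more abundant paralog in every library, but its excess over Akt2 was smaller in all 4 Tardbp KO libraries than in any WT library. The difference in the log2 ratio was -1.38 (2-sided exact permutation test over the 35 splits, p = 0.0286, the smallest that 3 against 4 libraries allow). PDPK1 (PDK1), which activates AKT, showed no such shift: Pdpk1 was at 61.7 to 71.2 CPM in WT and 59.6 to 76.9 in Tardbp KO, with a log2 fold change of 0.02 ± 0.14.

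The RefSeq table (build GRCm38.p6) held 41 start-site windows for 32 of the 34 genes. The Akt1 and Prkaa2 windows are shown because these were the pair of members with the largest differences. Each runs from 250 bases before to 50 bases after an annotated start site, on the minus strand, and capitals mark the motif GTAAACA, the core that FOXO factors bind, read on either strand.
Akt1, chr12:112674835-112675134, minus strand: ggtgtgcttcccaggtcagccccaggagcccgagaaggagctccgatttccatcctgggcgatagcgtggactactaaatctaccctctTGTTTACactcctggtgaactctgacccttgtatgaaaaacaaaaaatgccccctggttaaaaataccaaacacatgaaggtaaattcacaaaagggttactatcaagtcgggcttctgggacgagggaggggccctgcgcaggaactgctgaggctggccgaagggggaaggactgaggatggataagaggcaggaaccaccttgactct
Prkaa2, chr4:105109849-105110148, minus strand: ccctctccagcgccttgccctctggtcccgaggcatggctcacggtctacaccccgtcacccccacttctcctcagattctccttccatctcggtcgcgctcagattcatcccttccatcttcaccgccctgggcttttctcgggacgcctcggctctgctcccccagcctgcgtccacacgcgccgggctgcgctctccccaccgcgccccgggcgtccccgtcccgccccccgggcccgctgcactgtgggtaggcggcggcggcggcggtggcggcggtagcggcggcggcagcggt
GTAAACA was found in 3 of the 41 windows (Akt1, Stk11 and Sesn1), where 3.65% of all 32851 windows held it. It was not found in the Prkaa2 window or in the other Akt1 start-site window. The STAT5 motif TTCNNNGAA was in 3 windows (Mtor, Akt2 and Pdpk1), where 8.30% of all windows held it, and CACGTG was in 3 (Irs1, Irs2 and Rheb), where 7.15% did. These matches describe the letters in the windows only.

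AMPK consists of a catalytic alpha, a scaffolding beta and a nucleotide-sensing gamma subunit, each made from alternative genes. Prkaa2 was at 160.5, 82.5 and 87.3 CPM in WT. It was at 40.3, 50.8, 48.1 and 60.7 CPM in Tardbp KO. The groups did not overlap, and WT replicate 1 was well above the other WT libraries. Prkaa2 had a log2 fold change of -1.14 ± 0.25, or 2.20-fold lower, with an unadjusted p of 0.0014 and an adjusted p of 0.0793 in the quasi-likelihood test. The adjusted p was 0.00196 in edgeR's exact test and 0.00245 with DESeq2, and the range over all alternatives was 0.00196 to 0.62. With single libraries left out the log2 fold change was between -1.31 and -0.77.

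Prkaa1, which encodes the other catalytic subunit, alpha 1, went the other way by a smaller amount. It was at 17.8, 19.0 and 23.1 CPM in WT and at 26.5, 27.9, 27.6 and 23.2 CPM in Tardbp KO. The groups did not overlap, although WT replicate 3 and Tardbp KO replicate 4 were almost level. The log2 fold change was 0.40 ± 0.15, with an unadjusted p of 0.0272 and an adjusted p of 0.178 in the quasi-likelihood test. The ratio of Prkaa1 to Prkaa2 counts per kb was 0.19, 0.394 and 0.454 in WT and 1.12, 0.941, 0.981 and 0.655 in Tardbp KO. Prkaa2 was thus the more abundant catalytic gene in every WT library, and the 2 genes were close to level in Tardbp KO replicates 1 to 3. The difference in the log2 ratio was 1.49 (2-sided exact permutation test, p = 0.0286).

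The remaining AMPK genes differed less. Over all annotated exon bases, Prkab1 (beta 1) had the highest level of the regulatory subunit genes, at 21.1 ± 3.36 CPM per kb in WT and 22.5 ± 1.17 in Tardbp KO. Prkab2 (beta 2), Prkag1 (gamma 1) and Prkag2 (gamma 2) had log2 fold changes of 0.30 ± 0.17, -0.03 ± 0.16 and 0.27 ± 0.17, and their groups overlapped. Prkag1 shares 44.4% of its exon bases with another annotated gene, so reads there were not counted. Its level over all exon bases, 15.05 CPM per kb in WT, is therefore too low. Its rank beside Prkab1 is not settled by these values. Stk11, the gene of LKB1, which phosphorylates AMPK, was at 209 to 226 CPM in WT and 180 to 228 in Tardbp KO, with a log2 fold change of -0.11 ± 0.14. Of the 7 genes of AMPK and its kinase, Prkaa2 was therefore the one that stood apart on the lower side and Prkaa1 the one that met an unadjusted p under 0.05 on the higher side.

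**Figure D2:**
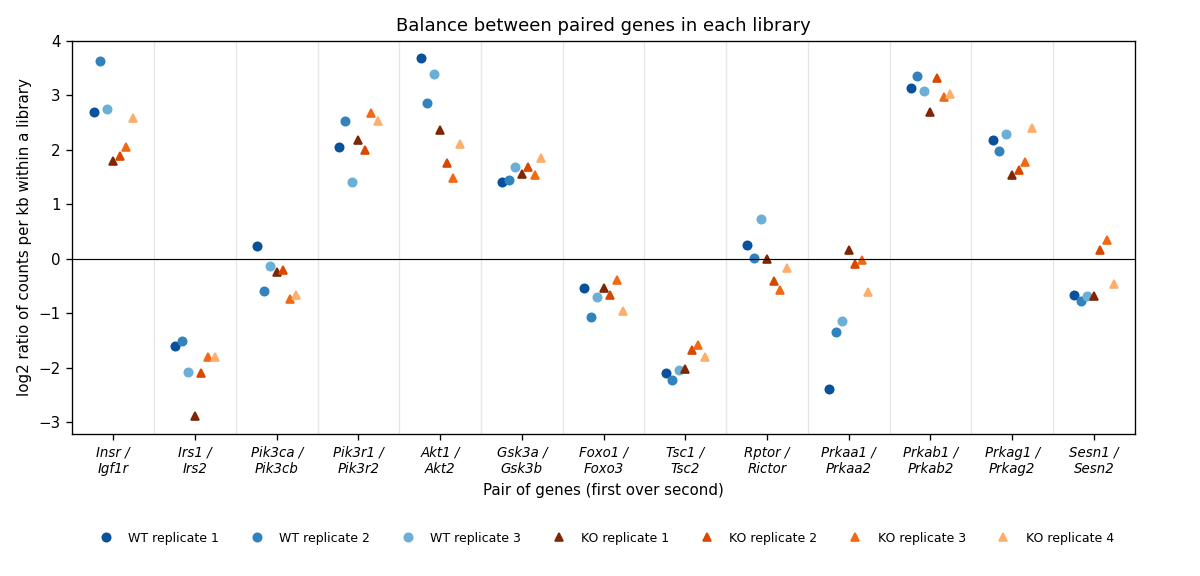
The log2 ratio of counts per kb of exon within each library (vertical axis) for the 13 pairs of members compared (horizontal axis), with circles for WT and triangles for Tardbp KO libraries. Circles and triangles do not overlap for 5 pairs, among them Akt1 over Akt2 (a difference of -1.38) and Prkaa1 over Prkaa2 (1.49).

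Among the 13 ratios compared, 3 others did not overlap between the groups. The ratio of Insr to Igf1r was lower in Tardbp KO by a log2 difference of -0.95, that of Rptor to Rictor was lower by -0.62, and that of Tsc1 to Tsc2 was higher by 0.35 (exact permutation p = 0.0571 for each). The other 8 overlapped, and their exact permutation p ran from 0.171 to 0.486. With 1 library left out, the smallest p that the Akt1 and Prkaa1 ratios reached was 0.0667, the lowest these group sizes allow. The p-values of the 13 ratios were not corrected for their number. Akt1 and Prkaa2 were already on the study's lipid gene list from these libraries, so their ratio tests are not independent evidence.

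At the receptor level, Igf1r, the gene of the IGF1 receptor, was sparse but higher. Igf1r was at 6.88, 3.72 and 7.25 CPM in WT and at 12, 15, 11.5 and 7.36 CPM in Tardbp KO. The groups did not overlap, but Tardbp KO replicate 4 was only just above WT replicate 3. Its log2 fold change was 0.95 ± 0.31, or 1.93-fold, with an unadjusted p of 0.0144 and an adjusted p of 0.14 in the quasi-likelihood test. Insr, the gene of the insulin receptor, was at 95.8 to 106 CPM in WT and 89.7 to 120 in Tardbp KO, with a log2 fold change of 0.02 ± 0.14. Insr remained the more abundant receptor gene in every library. Igf1, the ligand that stromal cells make in the gland, was at 20.3 to 24.4 CPM in WT and at 19.0, 31.6, 20.3 and 19.8 CPM in Tardbp KO, where replicate 2 stood above the rest.

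Irs1 and Irs2 encode the docking proteins that link the receptors to PI3-kinase. Irs1 was at 84.8, 47.9 and 75.1 CPM in WT and at 38.3, 62.6, 37.4 and 37.5 CPM in Tardbp KO. The Tardbp KO libraries other than replicate 2 were below all WT libraries, and that one lay among the WT values. The log2 fold change was -0.66 ± 0.25, with an unadjusted p of 0.0282 and an adjusted p of 0.181 in the quasi-likelihood test. With the lymphocyte markers as a covariate the log2 fold change of Irs1 was -0.24 (unadjusted p = 0.5 in edgeR), and the part of these cells in the difference was not tested. Irs1 shares 30.9% of its exon bases with another annotated gene. Irs2 varied within both groups, from 59.7 to 139 CPM in WT and from 57.2 to 124 in Tardbp KO, with a log2 fold change of -0.22 ± 0.37.

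PI3-kinase pairs a catalytic p110 with a regulatory p85 subunit. Pik3cb (p110 beta) was at 32.8, 54.1 and 38.2 CPM in WT and at 45.8, 55.0, 71.6 and 62.7 CPM in Tardbp KO. WT replicate 2 overlapped the Tardbp KO values. The log2 fold change was 0.49 ± 0.21, with an unadjusted p of 0.0462 in the quasi-likelihood test. Pik3ca (p110 alpha) was at 57.8 to 64.1 CPM in WT and 64.6 to 79.8 in Tardbp KO, a difference of 0.22 ± 0.13 on the log2 scale with groups that did not overlap. Pik3r1 (p85 alpha) was by far the most abundant PI3-kinase gene per kb, at 65.2 ± 30.2 CPM per kb in WT and 82.6 ± 20.6 in Tardbp KO. WT replicate 2 was at 740 CPM of Pik3r1 and the other WT libraries at 368 and 339, so the spread within WT was larger than the difference between the groups. Pik3r2 (p85 beta) had a log2 fold change of 0.04 ± 0.18.

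Of the 4 AKT substrate genes, Foxo1 was higher at an unadjusted p under 0.05 and the other 3 were not past it. GSK3, which phosphorylates glycogen synthase, is encoded by Gsk3a and Gsk3b, whose log2 fold changes were -0.08 ± 0.12 and -0.22 ± 0.13. Foxo1, a transcription factor gene of fasting metabolism, was at 44.2, 49.6 and 52.7 CPM in WT and at 75.4, 61.4, 74.3 and 48.3 CPM in Tardbp KO. Tardbp KO replicate 4 lay within the WT range while the other 3 were above it. Its log2 fold change was 0.41 ± 0.18 (unadjusted p = 0.0476 in the quasi-likelihood test), and 0.13 with the lymphocyte covariate. Foxo3 was at 83.1 to 134 CPM in WT and 122 to 142.5 in Tardbp KO, with a log2 fold change of 0.24 ± 0.18.

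Rheb, the gene of the GTPase that turns on mTOR complex 1, was lower. It was at 167, 84.9 and 136 CPM in WT and at 77.8, 81.3, 65.8 and 84.3 CPM in Tardbp KO. WT replicate 2 was almost level with Tardbp KO replicate 4, and the groups did not overlap. Its log2 fold change was -0.74 ± 0.22, with an unadjusted p of 0.00831 and an adjusted p of 0.1175 in the quasi-likelihood test. Tsc1 and Tsc2 encode the complex that switches RHEB off. Tsc1 was at 31.2, 36.3 and 34.9 CPM in WT and at 36.6, 50.5, 47.0 and 42.8 CPM in Tardbp KO, with no overlap but with Tardbp KO replicate 1 next to WT replicate 2. Its log2 fold change was 0.37 ± 0.15 (unadjusted p = 0.0325 in the quasi-likelihood test), against 0.01 ± 0.13 for Tsc2.

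The kinase mTOR works in complex 1, with raptor (Rptor), and in complex 2, with rictor (Rictor). Mtor was at 55.9 to 56.1 CPM in the 3 WT libraries and at 55.1, 57.5, 51 and 41.2 CPM in Tardbp KO, with a log2 fold change of -0.13 ± 0.14. Rictor was at 30.4, 35.4 and 27.1 CPM in WT and at 35.5, 45.6, 50.0 and 34.2 CPM in Tardbp KO. WT replicate 2 lay among the Tardbp KO values, and the log2 fold change was 0.42 ± 0.18 (unadjusted p = 0.0446 in the quasi-likelihood test). Rptor was at 51.5 to 65.3 CPM in WT and at 43.9 to 51.2 in Tardbp KO, a log2 difference of -0.22 ± 0.14. The Rptor groups were therefore separate by less than 1 CPM.

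Below mTOR complex 1, Rps6kb1, the gene of S6 kinase, was lower. Rps6kb1 was at 81.2, 54.2 and 62.3 CPM in WT. It was at 36.8, 43.0, 39.2 and 39.3 CPM in Tardbp KO. The Tardbp KO libraries were close to each other and all below WT. For Rps6kb1 the log2 fold change was -0.74 ± 0.16, or 1.67-fold lower, and its unadjusted p of 0.00121 in the quasi-likelihood test was the smallest among the 34 genes (adjusted p = 0.0784). The adjusted p was 0.00615 in edgeR's exact test and 0.00359 with DESeq2 (range over all alternatives 0.00359 to 0.62), but the change was below the limit of 1 on the log2 scale. Eif4ebp1, the gene of a translation inhibitor that mTOR complex 1 inactivates, was at 126 to 137 CPM in WT and 139 to 181 in Tardbp KO, a log2 difference of 0.22 ± 0.15.

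Ddit4, Sesn1 and Sesn2 encode inhibitors of mTOR complex 1 that are induced by stress. Sesn1 was at 12.2, 14.1 and 15.4 CPM in WT and at 18.4, 21.3, 27.2 and 14.6 CPM in Tardbp KO. Tardbp KO replicate 4 lay within the WT values, and the log2 fold change was 0.55 ± 0.22 (unadjusted p = 0.0349 in the quasi-likelihood test). Ddit4 split the Tardbp KO group, with 75.8 and 70.8 CPM in replicates 1 and 3 and 34.7 and 35.2 in replicates 2 and 4, against 39.4 to 56.4 CPM in WT. The lymphocyte markers were highest in the same replicates 1 and 3, and the log2 fold change of Ddit4 was 0.23 ± 0.31 without and -0.72 with these markers as a covariate. Sesn2 was at 20.2 to 25.8 CPM in WT and 19.9 to 30.6 in Tardbp KO.

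**Figure D3:**
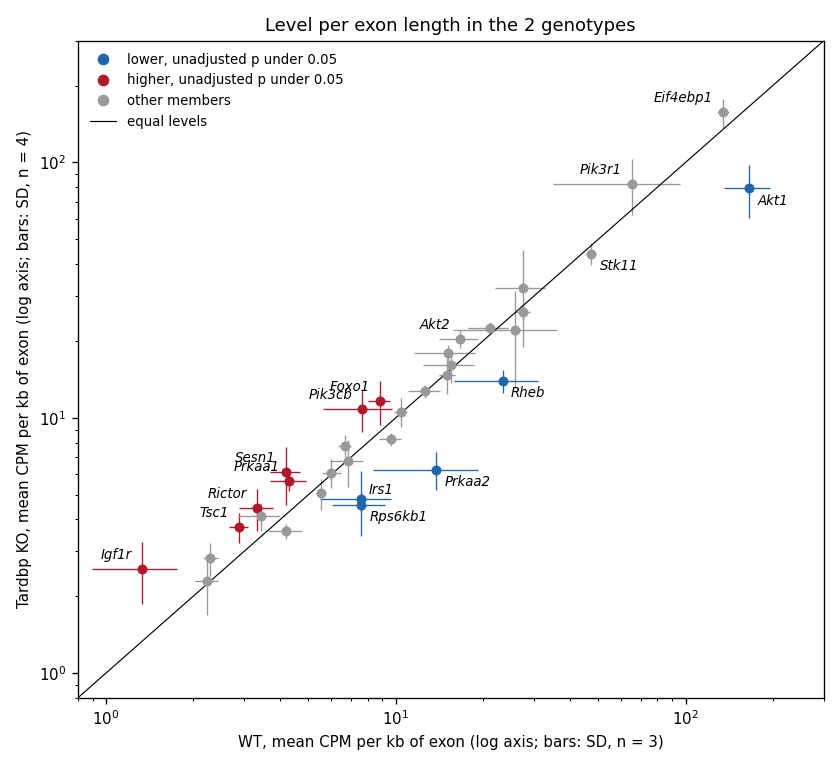
Mean level of each of the 34 genes in WT (horizontal axis) and Tardbp KO (vertical axis), in CPM per kb of exon on log axes, with bars of 1 SD over 3 WT and 4 Tardbp KO libraries. Blue points (5 genes, Akt1 and Prkaa2 the farthest) lie under the line of equal levels and red points (7 genes) above it.

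Sequencing lane and genotype were largely confounded, since only lane 4 held both, with WT replicate 2 and Tardbp KO replicates 3 and 4. Within that lane the log2 differences, for which there was no test, were -0.88 for Akt1, -0.60 for Prkaa2, -0.47 for Rps6kb1, -0.36 for Irs1 and -0.18 for Rheb. Those of Igf1r and Sesn1 were 1.34 and 0.57. WT replicate 2 was the lowest WT library for all 5 of the lower genes. The within-lane differences of the ratios were -1.05 for Akt1 over Akt2 and 1.02 for Prkaa1 over Prkaa2. With the lymphocyte markers as a covariate, the log2 fold changes of Akt1, Prkaa2 and Rps6kb1 were -0.97, -1.02 and -0.66. Their unadjusted p in that quasi-likelihood fit was 0.0434, 0.0387 and 0.0396. Rheb was at -0.62 (unadjusted p = 0.127) and Irs1 at -0.24 (unadjusted p = 0.5) in the same fit.

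Genes around the 34 were taken from a list of 98 other pathway genes, of which 97 were matched and 95 tested. At an unadjusted p under 0.05 in the quasi-likelihood test, 9 were lower and 18 higher, beside the same 10.7% of all genes in each direction. None passed the limits in that test. The exact test of edgeR called 0 lower and 4 higher (Pik3r5, Prr5l, Fbxo32 and Pdk4), beside 1.44% and 1.04% of all genes. DESeq2 called 0 lower and 9 higher, and it called more genes in all, 280 lower and 288 higher against 247 and 179 in the exact test. Their median log2 fold change was 0.14, against 0.05 for all genes. The genes named from this list had the smallest p, and others are named, after their values were seen, where a count is small.

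Prr5l, which encodes a partner of mTOR complex 2, was at 6.92 to 11.3 CPM in WT and 14.0 to 28.6 in Tardbp KO, and its log2 fold change was 1.32 ± 0.305 (adjusted p = 0.0825 in the quasi-likelihood test). Its paralog Prr5 was lower, with a log2 fold change of -0.71. Of 14 other PI3-kinase and lipid phosphatase genes, 6 were higher and 1 was lower at an unadjusted p under 0.05. The share of all genes was 10.7% in each direction. With the lymphocyte markers as a covariate 2 of these 14 were higher and 1 lower, beside 574 higher and 792 lower of all 17175 genes. Pik3r5, the regulatory subunit of a leukocyte PI3-kinase, was at 3.75 to 4.55 CPM in WT and at 29.6, 8.93, 19.4 and 8.88 CPM in Tardbp KO, with a log2 fold change of 2.0 ± 0.45 (adjusted p = 0.0793 in the quasi-likelihood test). It was highest in the 2 libraries with the most lymphocyte marker reads, and with those markers as a covariate its log2 fold change was 0.69. Pik3r3, the regulatory gene p55 gamma, was the lower one, at 22.1 to 41.2 CPM in WT and 13.9 to 19.1 in Tardbp KO (log2 fold change -0.97 ± 0.23).

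The FOXO target genes had the largest median of the 7 lists, 0.91 on the log2 scale, and 9 of the 10 had positive values. Among all 17175 tested genes, 9331 had positive values. Of the FOXO target genes, 5 were higher at an unadjusted p under 0.05 (Pdk4, Ccng2, Fbxo32, Txnip and Bcl6) and 1 lower (Klf15). The share of all genes was 10.7% in each direction. Pdk4, which encodes an inhibitor of pyruvate dehydrogenase, was at 37.1, 117 and 33.2 CPM in WT and at 121, 273, 216 and 221.5 CPM in Tardbp KO. All Tardbp KO libraries were above WT, and WT replicate 2 was almost level with Tardbp KO replicate 1. Its log2 fold change was 1.74 ± 0.47 (adjusted p = 0.0991 in the quasi-likelihood test). Fbxo32, the gene of the ubiquitin ligase atrogin, was at 18.6 to 31.6 CPM in WT and 38.1 to 67.2 in Tardbp KO (log2 fold change 1.02 ± 0.25), and Ccng2, a cyclin gene, had a log2 fold change of 1.09 ± 0.29. With the lymphocyte covariate the median of these 10 genes was 0.77, and 2 were higher and 0 lower at the same p. In that fit 574 of all 17175 tested genes were higher and 792 lower.

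Amino acid sensing at the lysosome feeds into mTOR complex 1 through the RAG GTPases. At an unadjusted p under 0.05, 3 of 20 such genes were lower (Sec13, Lamtor2 and Lamtor4) and 1 higher. For this list and those named below, the share of all genes at that p was 10.7% in each direction. The higher one of the 20, Rragd, was at 2.11, 8.04 and 3.51 CPM in WT and at 12.4, 11.1, 14.0 and 24.1 CPM in Tardbp KO. It had a log2 fold change of 1.75 ± 0.47 (adjusted p = 0.0953 in the quasi-likelihood test). Its groups did not overlap. Of 12 other targets of mTOR and AKT, Eif4e, Pdcd4 and Sgk2 were lower and the autophagy kinase gene Ulk1 higher. Of 10 other AMPK pathway genes, Sesn3, another sestrin gene, was higher, with a log2 fold change of 1.04 ± 0.27. Of 16 other ligand, receptor and binding protein genes, the adaptor genes Grb14 and Gab1 were higher, with log2 fold changes of 1.21 and 0.69.

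**Figure D4:**
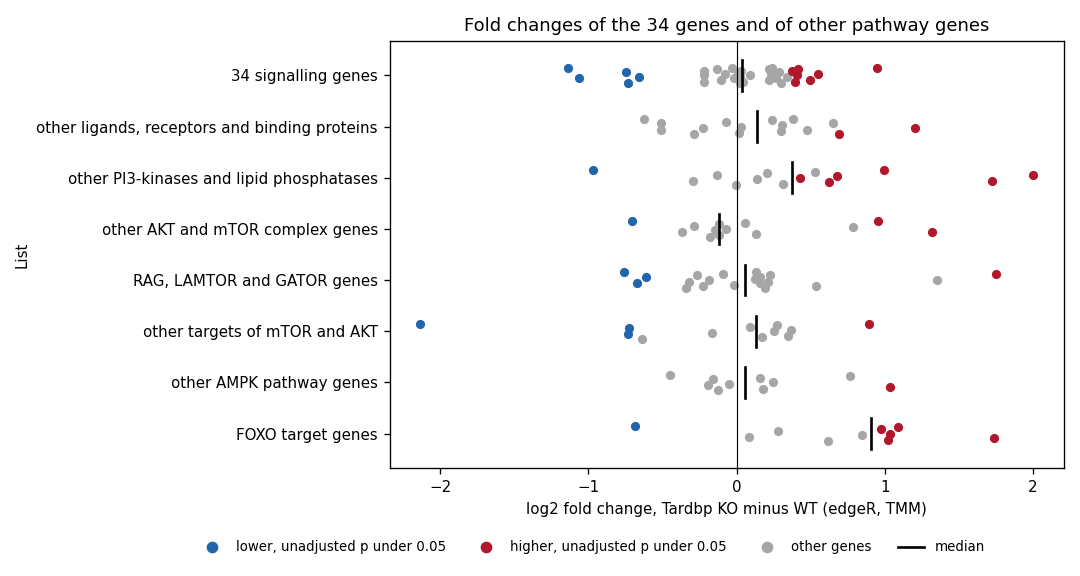
Log2 fold changes (horizontal axis, Tardbp KO minus WT) of the 34 genes and of 7 lists of other pathway genes (vertical axis), with 1 point per gene and a black line at each list's median. The median of the 34 is 0.03 and that of the FOXO target genes 0.91, and blue and red points are genes lower or higher at an unadjusted p under 0.05.

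TDP-43 binds runs of UG in RNA, so the mature transcripts of the 34 genes were searched for runs of at least 3 UG (TG in the DNA letters below), in the longest coding transcript of each gene. The members held a median of 11 UG in such runs, where 15112 tested genes with a coding transcript held a median of 3. Their transcripts were also longer, with medians of 4868 and 2909 bases, and per kb the medians were 2.32 and 1.43 UG. Of 134 runs in the members, 90 were in a 3′ UTR, 44 in coding sequence and 0 in a 5′ UTR. A run of 10 or more UG was found in 5 members, where 3.65% of all genes had one, and no run in 3 (Rheb, Eif4ebp1 and Pik3r2), where 28.5% of all had none. The following stretches of 30 bases (build NCBIM37, 5′ to 3′ on the transcript strand) set the longest runs beside those of the genes that were lowest in Tardbp KO, and capitals mark the bases that belong to the run.
Pdpk1, chr17:24213659-24213688, minus strand: gtacaactcgTGTGTGTGTGTGTGTGTGTG
Gsk3b, chr16:38243087-38243116, plus strand: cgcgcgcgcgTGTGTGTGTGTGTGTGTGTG
Igf1, chr10:87397545-87397574, plus strand: tgtaagtacgTGTGTGTGTGTGTGTGTGTG
Rictor, chr15:6748278-6748307, plus strand: ctttgaaaggTGTGTGTGTGTGTGTGTGTG
Prkaa2, chr4:104702736-104702765, minus strand: tacctcacagaTGTGTGTGagaagccgttt
Akt1, chr12:113895115-113895144, minus strand: tgtacgagatgaTGTGTGgccgcctgccct
Akt1, chr12:113892957-113892986, minus strand: gacagcatggagTGTGTGgacagtgagcgg
Rps6kb1, chr11:86316153-86316182, minus strand: ccgggaaggggaTGTGTGagcatcctgcaa
The first 5 and the Rps6kb1 stretch are in 3′ UTRs, and both Akt1 stretches are in coding sequence. The whole runs of Pdpk1, Gsk3b, Igf1 and Rictor have 28, 17, 17 and 17 UG, of which the stretch shows the start. Pdpk1, with the longest run, had a log2 fold change of 0.02, Igf1 of 0.03, Gsk3b, with the most UG (71), of -0.22, and Rictor of 0.42. Akt1, Prkaa2 and Rps6kb1, which were lower, held 6, 7 and 6 UG in short runs, and Rheb held none. The study's own enrichment test of UG motifs in its lipid genes, a different measure, gave Prkaa2 a lower p-value than Akt1. Irs1 held 22, in runs of at most 4. Introns, where much TDP-43 binding is known to lie, were not searched, nor were exon bases outside the chosen transcript. For Rheb that transcript had 1784 bases, where all annotated exons of the gene had 5540.

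**Figure D5:**
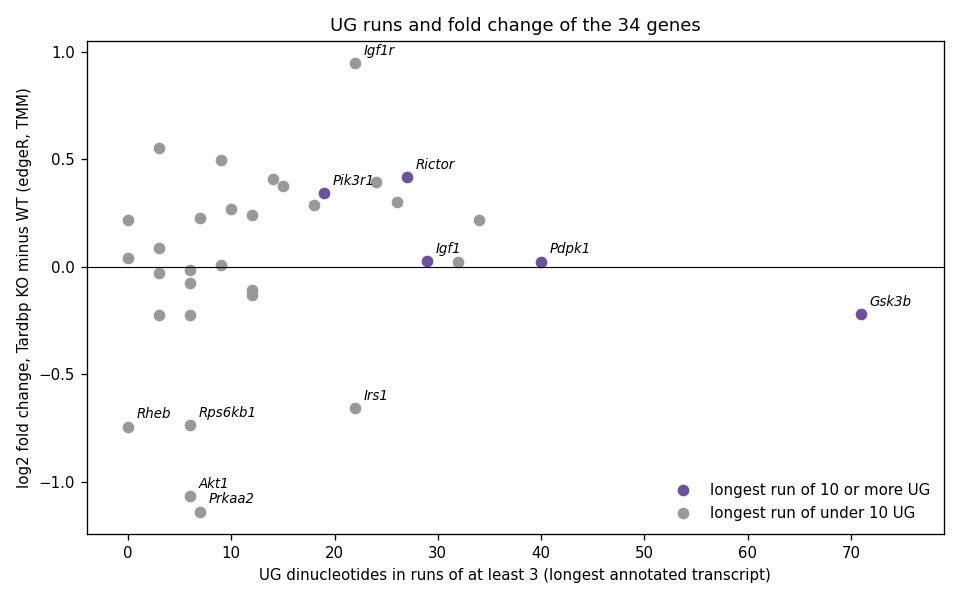
Log2 fold change of each of the 34 genes (vertical axis, Tardbp KO minus WT) against its count of UG within runs of 3 or more, taken from its longest annotated transcript (horizontal axis). The 5 purple genes, with a run of 10 or more UG, have fold changes between -0.22 and 0.42, and Akt1 and Prkaa2 sit at 6 and 7 UG.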

How the data were processed

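RNA from whole mammary gland was sequenced by the authors as paired-end TruSeq libraries. The deposited counts were made by the authors with STAR (2.5.2a in the submitters' processing notes; the methods name an earlier release) on NCBIM37 (mm9) and featureCounts 1.4.6-p5 with GENCODE vM1 exons. Per the file headers no strand, pair or multi-mapping option was set, so mates were counted separately, and reads on several genes or places were not counted. The header names 1 more library, not analysed here.

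Following the study, 37 mitochondrial and 580 ribosomal genes were left out, and a gene was tested if 4 of the 7 libraries or more had 5 counts or more. edgeR 4.0.16 (TMM, quasi-likelihood test, Benjamini-Hochberg over all 17175 genes) was run on the deposited counts as the main test, with edgeR's exact test and DESeq2 1.42.0 as alternatives, and checked on simulated data. CPM values use TMM-scaled library sizes. Levels per kb use the union of a gene's exons. Ratios and single levels were compared by 2-sided exact permutation tests. The labels do not say that replicates are more than separate samples, and p-values measure the spread between these samples. All 34 members are accounted for; those with an unadjusted p under 0.05, and their partners in 13 pairs, are given in detail; 1 gene of the other pathway genes is not reported here by name. The members and lists were chosen with earlier results of these data known. Sequences are from GENCODE vM1 (NCBIM37) and RefSeq (GRCm38.p6). Alternatives were scalings, filters, tests, a replicate block, marker covariates, lane 4 alone and leaving out each library.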

Additional observations from a re-analysis of the deposited data

Results flagged for a closer look

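Within the 4 Tardbp KO libraries, 1 library stood far from the other 3 for 3 of the 34 genes, by Dixon's gap divided by the range, past the 95% critical value. Irs1 was at 62.6 CPM in Tardbp KO replicate 2, with a ratio of 0.955, and Igf1 was at 31.6 CPM in the same library, with a ratio of 0.874. Prkag1 was at 30.1 CPM in Tardbp KO replicate 4, with a ratio of 0.929. Chance flags about 1 in 20 groups, and 34 groups were examined. Tardbp KO replicate 2 also had the most adipocyte marker reads (6058 CPM summed, against 3138 to 4028 in the other Tardbp KO libraries), and their part in the Irs1 and Igf1 values was not tested.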

How the results depend on the processing

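For the 12 members with an unadjusted p under 0.05, no alternative turned the direction of the fold change (252 values), and 4 values passed the study's limits, Akt1 and Prkaa2 in edgeR's exact test and in DESeq2 (2 members called with each, against 0 in the quasi-likelihood test). Scaling by library size alone moved the median log2 fold change of all tested genes from 0.05 to 0.42 and that of the members to 0.41. It left 2 members lower and 15 higher, and 1 other pathway gene lower and 42 higher. Of all 17175 tested genes, 523 were then lower and 5286 higher. Under that scaling the log2 fold changes of Akt1, Prkaa2, Rps6kb1, Rheb and Irs1 were -0.71, -0.74, -0.35, -0.36 and -0.26. Those of the members named as higher were larger than in the main fit. With the lymphocyte markers as a covariate, 3 members were lower, 2 higher and 10 other pathway genes higher, and the members' median was 0.13. In that fit 792 of all tested genes were lower and 574 higher. The adipocyte covariate left 1 member higher. With single libraries left out, the members higher numbered 1 to 7, the members' median was 0.0306 to 0.12 (0.12 without WT replicate 2), and the other pathway genes lower numbered 3 (without WT replicate 1) to 12. For the adipocyte covariate and the left-out libraries, the counts over all genes are not given here. Shifts in those 2 kinds of fit are therefore not read as a trait of the members. The cause of the shifts was not tested. The log2 ratio difference of Foxo1 over Foxo3 was 0.12 with all libraries and ran from -0.0247 (without WT replicate 2) to 0.238 with single libraries left out.

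Replicate numbers are shared by the labels, but deviations of same-numbered libraries from their group means correlated at 0.333, 0.0966 and -0.0557, and WT replicates 2 and 3 correlated best with Tardbp KO replicates 4 and 2, so the numbers were not taken to pair the libraries. With the replicate block 0 members were called, 4 were lower and 7 higher, the members' median was 0.06, and 12 other pathway genes were lower and 20 higher. The counts over all genes in that fit are not given here, so these counts have no share beside them. Levels near 10 CPM, such as Igf1r, and the 3 and 4 libraries per group limit what could be seen.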
